A study of Hemigymnus melapterus and Thalassoma lunare and Coris batuensis with 46 samples.

Results

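A set of 40 Ldim_g genes had a lower mean level in each of 3 facultative cleaner wrasses than in either of 2 non-cleaner wrasses in a forebrain section. They were selected on these measured values: in 43 of 46 fish, counts were scaled to CPM, the count per 1000000 counts in Ldim_g genes, and a species level was log2(mean CPM + 10). The gap of a gene was the lowest level among the non-cleaner species minus the highest level among the cleaner species, so a positive gap means that all cleaner species were lower. Of the 28134 Ldim_g genes listed, 979 had a total of 200 counts or more in the 43 fish, hereafter the tested genes. A gap above 0 was found in 76 of them (7.76%), and the 40 with the largest gap form the set, hereafter the members. The opposite order, all cleaner species above all non-cleaner species, was found in 86 of the tested genes.

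The cleaner fish were 9 Halichoeres melanurus, 10 Hemigymnus melapterus and 10 Thalassoma lunare, and the non-cleaner fish were 9 Coris batuensis and 8 Labrichthys unilineatus. All were females, 1 library each, with no treatment named in the labels and no age given there. Each library came from a forebrain slice of 300 µm with the pallial areas Dl and Dm and parts of the septum and striatum. Cleaning status varied only between species, so fish of a species repeat the species and not the status, and status cannot be told apart from anything else that differs between these 5 species.

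Facultative cleaners are fishes that take parasites from the skin of other fishes for part of their life or diet, whereas non-cleaners feed in other ways. The areas Dl and Dm of the fish pallium are regarded as counterparts of the hippocampus and the pallial amygdala of mammals and are studied for their part in learning and social decisions. In 3′ tag sequencing reads come from near the polyadenylated end, so a transcript's count does not grow with its length. The files do not pair Ldim_g identifiers with gene names, so the genes are given by identifier, what they encode is not stated, and the tissue was not checked against marker genes.

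Depth limits what follows. The 43 libraries held 14927 to 59259 counts in Ldim_g genes (median 32948), so 1 count was worth between 16.9 and 67.0 CPM. One set of identifiers served all 5 species, and among the reads listed the part not aligned came to 58.8% ± 0.989 for Halichoeres (SD, n = 8), 51.4% ± 1.16 for Hemigymnus (n = 9), 61.1% ± 1.39 for Thalassoma (n = 9), 58.1% ± 0.594 for Coris (n = 9) and 47.0% ± 1.21 for Labrichthys (n = 8). A lower transcript level and poorer alignment of a species' reads to an identifier cannot be told apart in these counts, and neither can fewer cells of a type and less RNA per cell. All 43 libraries were nearest to the mean of the other fish of their own labelled species (Pearson r over the 979 tested genes from 0.841 to 0.942). The 3 libraries left out of the choice stood apart: r for the fish labelled Thalassoma lunare 4 was 0.916 with Halichoeres and 0.730 with its own label, r for the fish labelled Halichoeres melanurus 2 was 0.910 with Thalassoma and 0.707 with its own label, and r for Hemigymnus melapterus 4 was 0.683 with its own species. The last had no counts in 450 of the tested genes.

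The gaps of the members ran from 0.26 to 1.43 on the log2 scale, with a median of 0.50, where the median over the tested genes was -0.89. A gap of 1 or more, a difference of at least 1 doubling between the nearest species of opposite status, was seen in 4 members, and 20 had a gap of 0.5 or more. The border of the set was gradual. The last members were Ldim_g7863, Ldim_g20830 and Ldim_g12506 with gaps of 0.272, 0.263 and 0.256, and the first genes outside it were Ldim_g832, Ldim_g10965 and Ldim_g11835 with 0.241, 0.239 and 0.235. Among cleaners the highest species was Halichoeres for 16 members, Hemigymnus for 13 and Thalassoma for 11, and among non-cleaners the lowest was Coris for 22 and Labrichthys for 18. Over the tested genes the shares were 31.6%, 33.3% and 35.1% for these cleaners, and 49.9% and 50.1% for these non-cleaners. No single species therefore set the border for the whole set.

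**Figure D1:**
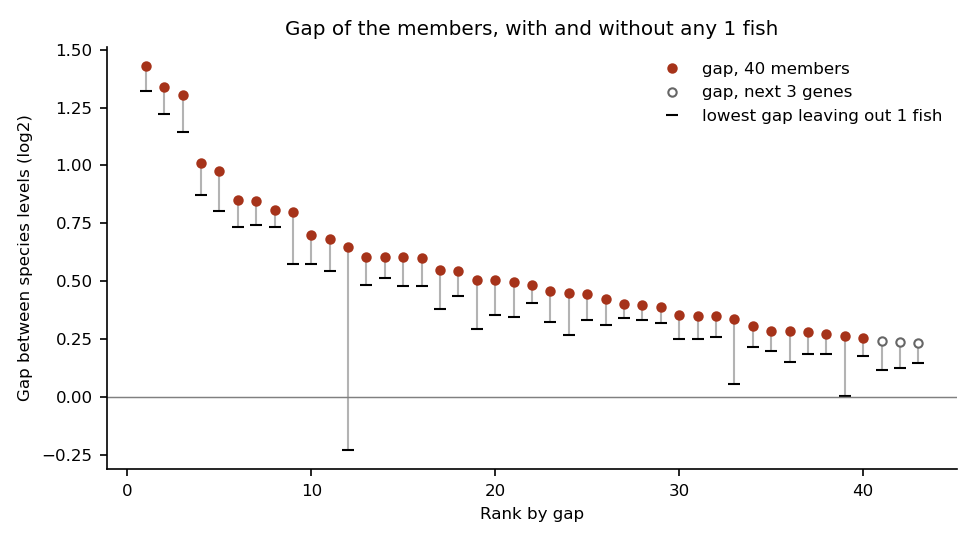
The gap (log2, y axis) of the 40 members and the next 3 genes by rank (x axis), with a short black bar at the lowest gap when any 1 fish is left out. The gaps fall steeply over the first ranks and then level off towards 0.26, and the black bar of the member at rank 12 lies below 0.

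The largest gap, 1.43, belonged to Ldim_g10411. Its lowest, median and highest levels were 63.1, 130.2 and 261 CPM in Halichoeres, 0, 37.6 and 94.99 CPM in Hemigymnus, and 49.7, 160.1 and 284 CPM in Thalassoma, against 257, 459.6 and 578 CPM in Coris and 692, 751 and 1044 CPM in Labrichthys. Its 464 counts were 36, 9 and 51 in the cleaner species, against 101 in Coris and 267 in Labrichthys. The groups of fish overlapped only at their edges: 24 of 26 cleaner fish were below all non-cleaner fish, and 16 of 17 non-cleaner fish were above all cleaner fish. Hemigymnus stood lowest, with 4 of 9 fish at 0, and Labrichthys highest.

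Ldim_g15928 had a gap of 1.34 and 795 counts. It ran from 119 to 549 CPM in Halichoeres (median 284), from 127 to 339 CPM in Hemigymnus (median 209.5) and from 133 to 447 CPM in Thalassoma (median 267), against 514 to 1204 CPM in Coris (median 788) and 631 to 1469 CPM in Labrichthys (median 1026). The 3 cleaner species lay close together here, and 1 Halichoeres fish was the only cleaner within the non-cleaner range.

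In Ldim_g16505, with a gap of 1.30 and 394 counts, the order of the non-cleaners was turned round. The lowest, median and highest fish had 20.1, 139 and 384.5 CPM in Halichoeres, 0, 75.3 and 124 CPM in Hemigymnus, and 0, 133 and 174 CPM in Thalassoma, against 459.6, 669.9 and 844 CPM in Coris and 164, 395 and 676 CPM in Labrichthys. All Coris fish were above all cleaner fish, while Labrichthys overlapped them.

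Ldim_g6660, the last member with a gap above 1 (1.01), had 346 counts. Its levels were 0 to 121 CPM in Halichoeres (median 39.6), 0 to 260.2 CPM in Hemigymnus (median 113) and 32.0 to 227 CPM in Thalassoma (median 80.9), against 58.8 to 335 CPM in Coris (median 241) and 474.5 to 933 CPM in Labrichthys (median 595). Labrichthys was above all other fish, whereas Coris overlapped all 3 cleaner species.

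Ldim_g13693 was counted mostly in Labrichthys, with 330 of its 366 counts in that species. It averaged 28.6 ± 57.1 CPM in 8 Halichoeres (SD), 22.8 ± 27.7 CPM in 9 Hemigymnus and 27.1 ± 29.7 CPM in 9 Thalassoma, on 6, 6 and 9 counts, against 65.96 ± 39.0 CPM in 9 Coris, on 15 counts, and 959 ± 276 CPM in 8 Labrichthys. The gap of 0.98 is thus the difference between Coris at 15 counts in 9 fish and Halichoeres at 6 counts in 8 fish, and 14 of the 26 cleaner fish were at 0.

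Ldim_g24705 had 2196 counts, so its values are steadier. Its lowest, median and highest levels were 564, 753 and 1118 CPM in Halichoeres, 747, 1114 and 1509 CPM in Hemigymnus, and 405, 767 and 886 CPM in Thalassoma, against 1155, 1911 and 3350 CPM in Coris and 1717, 3048 and 4006 CPM in Labrichthys. Of the cleaner fish 22 of 26 were below all non-cleaner fish, and only Hemigymnus fish reached the non-cleaner range.

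**Figure D2:**
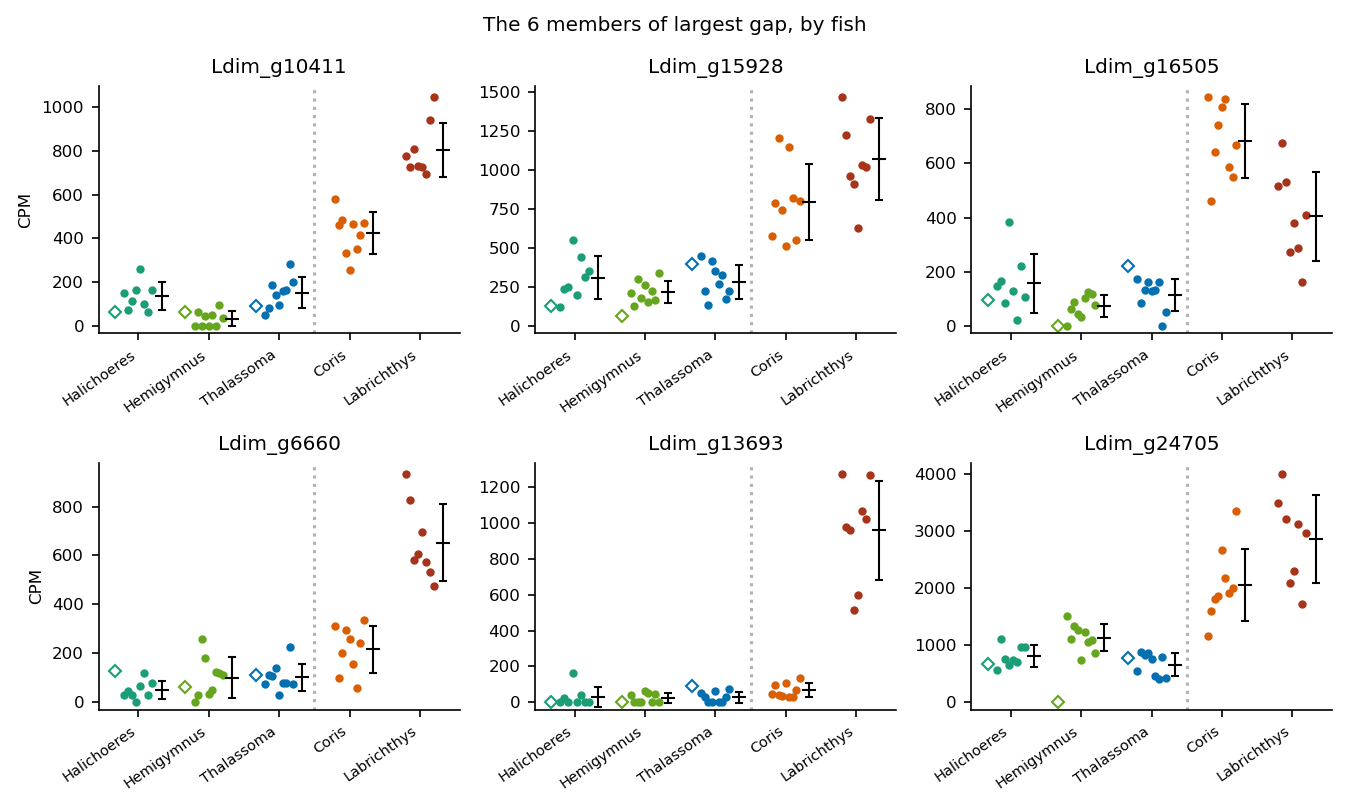
CPM (y axis) of the 6 members of largest gap in each fish, by species (x axis), with cleaner species left of the dotted line; bars give the mean and SD of the 43 fish, and open diamonds are libraries left out. In Ldim_g10411 and Ldim_g15928 both non-cleaner species stand above the cleaners, in Ldim_g16505 Coris is highest, and in Ldim_g6660 and Ldim_g13693 Labrichthys is highest.

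The 6 members with 1000 counts or more have the smallest counting error. Besides Ldim_g24705, they were Ldim_g20090, Ldim_g18776, Ldim_g14266, Ldim_g21368 and Ldim_g13675. Ldim_g20090 averaged 1698 ± 401 CPM in Halichoeres, 1195 ± 333 CPM in Hemigymnus and 1245 ± 327 CPM in Thalassoma, against 3126 ± 989 CPM in Coris and 2976 ± 646 CPM in Labrichthys (SD over 8, 9, 9, 9 and 8 fish in this order, as for all means that follow). Ldim_g18776 averaged 993 ± 250 CPM, 867 ± 189 CPM and 768 ± 213 CPM in the same cleaner species, against 1474 ± 387 CPM in Coris and 1453 ± 316 CPM in Labrichthys. In both genes the 2 non-cleaner species were closer to each other than to any cleaner species.

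Ldim_g14266 averaged 1263 ± 364 CPM in Halichoeres, 939.9 ± 153 CPM in Hemigymnus and 943 ± 168 CPM in Thalassoma, against 1773 ± 298 CPM in Coris and 1857 ± 228 CPM in Labrichthys. Ldim_g21368 averaged 1217 ± 160.3 CPM, 725 ± 191 CPM and 1139 ± 249 CPM in these cleaner species, against 1775 ± 284 CPM in Coris and 1635 ± 506 CPM in Labrichthys. Ldim_g13675, with the highest total of any member at 10916 counts, averaged 4775 ± 969 CPM in Halichoeres, 7400 ± 1680 CPM in Hemigymnus and 5502 ± 704 CPM in Thalassoma, against 10962 ± 2146 CPM in Coris and 9789 ± 1587 CPM in Labrichthys. For Ldim_g13675 21 of 26 cleaner fish were below all non-cleaner fish, with Hemigymnus nearest to the non-cleaners.

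The other members rested on fewer counts. Totals over the 43 fish ran from 200 (Ldim_g20830) to 10916 with a median of 405, near the median of 432 over the tested genes, and 27 members had fewer than 500. Many reached the minimum of 200 only with the counts of a single species, most often Labrichthys, in which members were higher than in the cleaners. Without the fish of Halichoeres, Hemigymnus or Thalassoma 4, 2 and 3 members had fewer than 200 counts (15.3%, 14% and 18.7% of the tested genes). This was so for 6 without Coris (11.3% of the tested genes) and 16 without Labrichthys (21.3%). The order of species means did not carry over to every fish: in 0 of 40 members were all cleaner fish below all non-cleaner fish, and this held for 0 of the 979 tested genes too, while 3 tested genes had all cleaner fish above all non-cleaner fish. In Ldim_g4998 no non-cleaner fish was above all cleaner fish. Its mean was 166 ± 94.6 CPM in Halichoeres, 39.1 ± 27.6 CPM in Hemigymnus and 136 ± 47.5 CPM in Thalassoma, against 204.5 ± 103 CPM in Coris and 238 ± 76.9 CPM in Labrichthys, with 1 Coris fish at 0.

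**Figure D3:**
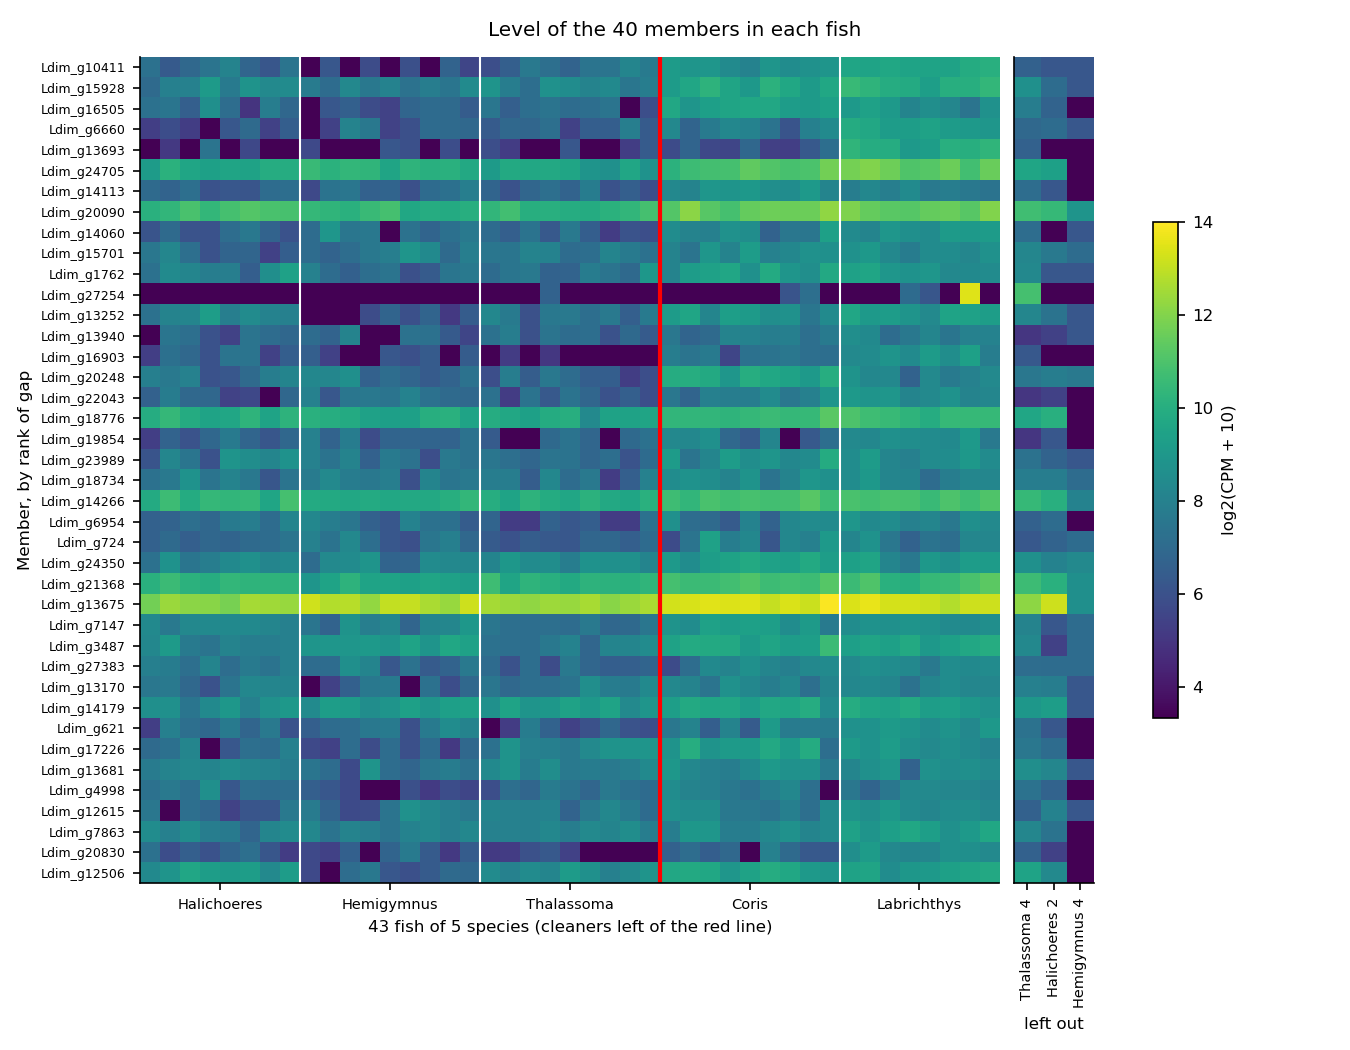
Level, log2(CPM + 10), of the 40 members (rows, by rank) in the 43 fish (columns by species, cleaners left of the red line) and, at the right, in the 3 libraries left out. Most rows brighten to the right of the red line, and the row of Ldim_g27254 is dark in all but a few fish.

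The gap of 1 member depended on single fish. Ldim_g27254, at rank 12 with a gap of 0.65, had 0 counts in all Halichoeres and Hemigymnus fish and 4 counts in 1 Thalassoma fish, against 6 counts in 2 Coris fish and 565 in Labrichthys, of which 559 were in Labrichthys unilineatus 8. That fish held 97.2% of the gene's 575 counts (11429 CPM). Without it the Labrichthys mean was 26.4 CPM (n = 7). The computed gap was still 0.65, since Coris was the lower non-cleaner. However, the gene then had too few counts to reach the minimum, so it would not have been tested or chosen. Without the fish Coris batuensis 9 the gap was -0.23. The other 39 members kept a gap above 0 when each fish was left out in turn, with the minimum count not applied again. The smallest values were in Ldim_g20830 (0.0034) and Ldim_g621 (0.055). The SD among fish of the same species, on the log2(CPM + 10) scale, ranged from 0.27 to 1.76 over the members with a median of 0.72 (0.65 over the tested genes), and the gap was larger than this SD in 13 members.

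Since the gap chose the members, the contrast of cleaner with non-cleaner species is given as a description. In edgeR's quasi-likelihood fit with each species weighted equally, all 40 members were lower in cleaners at an adjusted p below 0.05, as were 26.7% of the tested genes. A stricter rule asked for an adjusted p below 0.05 in all 6 pairs of a cleaner and a non-cleaner species. It was met by 14 members and by 1.43% of the tested genes, which are the same 14 genes. These 14 were Ldim_g10411, Ldim_g15928, Ldim_g16505, Ldim_g6660, Ldim_g24705, Ldim_g14113, Ldim_g20090, Ldim_g15701, Ldim_g1762, Ldim_g13252, Ldim_g18776, Ldim_g14266, Ldim_g21368 and Ldim_g13675, and they include all 6 members with 1000 counts or more. Without the minimum count (16145 genes tested), 6 members met the stricter rule in place of 14. The share of those 16145 genes that met it was not counted. When limma-voom was run with species as a random effect, 3 members were called (Ldim_g10411, Ldim_g15928 and Ldim_g24705, lowest adjusted p 0.0193), against 0.613% of the tested genes. That fit takes the shared level of fish of a species into account only in part. It used a single consensus correlation for all genes, and the degrees of freedom still came from fish and not from species.

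The level summed over the members follows from the same choice and is again a description. Halichoeres fish had a mean log2(CPM + 10) over the 40 members of 7.61 ± 0.18, Hemigymnus of 7.31 ± 0.17 and Thalassoma of 7.39 ± 0.16, against 8.66 ± 0.06 in Coris and 9.02 ± 0.16 in Labrichthys (SD over fish), where the mean over the tested genes was between 8.32 and 8.49 in all 5 species. The highest cleaner fish reached 7.84 and the lowest non-cleaner fish 8.59. The members took 1.69% ± 0.22, 1.76% ± 0.18 and 1.58% ± 0.12 of all gene counts in Halichoeres, Hemigymnus and Thalassoma, against 3.44% ± 0.41 in Coris and 3.72% ± 0.53 in Labrichthys. Between 34 and 39 members were detected per cleaner fish, and between 38 and 40 per non-cleaner fish. Most members were thus detected in most cleaner fish.

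**Figure D4:**
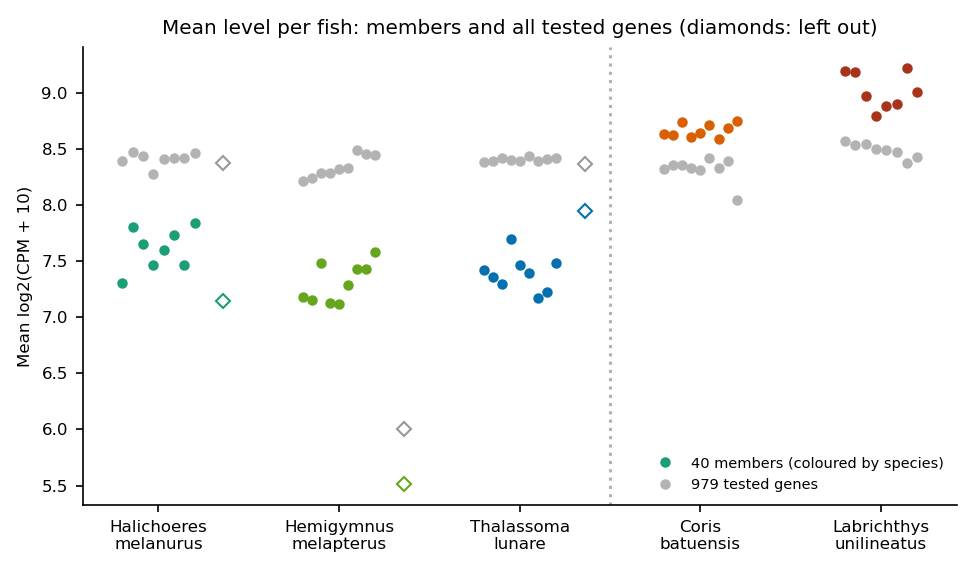
Mean log2(CPM + 10) per fish (y axis) over the 40 members (coloured) and over the 979 tested genes (grey), by species (x axis), with the left-out libraries as open diamonds. The grey points of the 43 fish lie between 8.05 (Coris batuensis 10) and 8.57 (Labrichthys unilineatus 1). The members lie at 7.1 to 7.8 in cleaners and 8.6 to 9.2 in non-cleaners. The left-out Hemigymnus library is low in both.

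Species of the same status also differed in part of the members. In each pair the share called in either direction was smaller among the members than among the tested genes. These differences between species are not independent of the choice. The same species means entered the gap, a gene whose species differ little within a status reaches a positive gap more easily, and a gene high in 1 species reaches the minimum count through it. Between the 2 non-cleaners, 4 members (10%) were higher and 13 (32.5%) lower in Coris than in Labrichthys (edgeR quasi-likelihood test, Benjamini-Hochberg adjusted p below 0.05). Among the tested genes 24.4% were higher and 28.7% lower. Of the 4 higher in Coris, Ldim_g14113 had 171 counts without Coris, so its difference is a description. Of the 13 that were lower in Coris, 10 had fewer than 200 counts without Labrichthys, so they were tested only because they were high there, and their count and differences are a description. Among these 10, Ldim_g13693 had 36 counts without Labrichthys, Ldim_g20830 had 75 (26 of them in Coris) and Ldim_g6660 had 126, beside 330, 125 and 220 in Labrichthys. The other 3 were Ldim_g7863, Ldim_g24705 and Ldim_g15928. Ldim_g7863 averaged 330.3 ± 109 CPM in Coris and 621 ± 154 CPM in Labrichthys, a log2 fold change of -0.91 (SE 0.21, adjusted p = 0.000143 by edgeR). Ldim_g24705 had -0.54 (SE 0.16, adjusted p = 0.00288 by edgeR). Ldim_g15928 had -0.47 (SE 0.19, adjusted p = 0.0327 by edgeR), and it missed the threshold in 6 of 43 refits with 1 fish left out, with an adjusted p of 0.0814 without Labrichthys unilineatus 10. In the other direction Ldim_g20248 averaged 817 ± 205 CPM in Coris and 276 ± 101 CPM in Labrichthys, a difference of 1.49 in log2 (SE 0.25, adjusted p = 6.35e-07 by edgeR). Ldim_g27254 rested on Labrichthys unilineatus 8, without which the gene had too few counts to be tested. Without this fish 12 of the 37 members tested, in place of 17 of 40, differed between the non-cleaners. The share called among the 959 genes tested there was not counted.

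Among the cleaners, 10 members (25%) were higher and 5 (12.5%) lower in Halichoeres than in Hemigymnus. Of the tested genes, 28% were higher and 26.5% lower. Among the 10 higher members, Ldim_g16903 and Ldim_g4998 had 188 and 187 counts without Halichoeres, so their differences are a description. Ldim_g12506 averaged 529 ± 158 CPM in Halichoeres and 86.1 ± 54.7 CPM in Hemigymnus, a difference of 2.55 in log2 (SE 0.30, adjusted p = 7.34e-11 by edgeR). Ldim_g13252 averaged 295 ± 136 CPM and 43.5 ± 40.5 CPM in the same species, with 2.49 (SE 0.40, edgeR adjusted p = 3.99e-07). The largest fall was in Ldim_g3487, at 269 ± 119 CPM in Halichoeres and 562 ± 136 CPM in Hemigymnus (log2 fold change -1.05, SE 0.23, edgeR adjusted p = 0.000105).

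Between Halichoeres and Thalassoma, 12 members (30%) were higher in Halichoeres and 3 (7.5%) lower, where 25.7% of the tested genes were higher and 25.5% lower. Ldim_g16903 had 29 counts in Halichoeres and 2 in Thalassoma, but only 188 counts in all without Halichoeres, so this difference is a description, as is that of Ldim_g20830 (24 and 8 counts, and 176 without Halichoeres). The next largest rise was in Ldim_g6954, at 156 ± 65.7 CPM in Halichoeres and 66.1 ± 43.05 CPM in Thalassoma (log2 fold change 1.21, SE 0.37, adjusted p = 0.00524 by edgeR). Ldim_g12615 averaged 96.6 ± 68.7 CPM in Halichoeres and 213 ± 68.0 CPM in Thalassoma (log2 fold change -1.15, SE 0.34, edgeR adjusted p = 0.0039). With all 46 libraries, in which each species holds the library nearest to the other, 7 members in place of 15 differed between these species. The share called among the 1023 genes tested in that fit was not counted. The change can therefore not be read as particular to the members, and its cause was not tested. Between Hemigymnus and Thalassoma, 11 members (27.5%) were higher in Hemigymnus and 8 (20%) lower, where 30.2% of the tested genes were higher and 30.4% lower. Ldim_g20830, higher in Hemigymnus, had 183 counts without that species. Ldim_g4998, higher in Thalassoma, had 184 without that species, so both differences are a description. The largest rise was in Ldim_g16903, with 11 counts in Hemigymnus and 2 in Thalassoma and a fitted difference of 2.30 in log2 (SE 0.72, adjusted p = 0.00495 by edgeR), whose size depends on the model at so few counts. Ldim_g3487 was 1.48 higher on the log2 scale in Hemigymnus (SE 0.23, edgeR adjusted p = 1.26e-07), and Ldim_g17226 and Ldim_g10411 were lower there, with log2 fold changes of -1.98 (SE 0.36) and -1.97 (SE 0.42) and adjusted p of 2.68e-06 and 5.02e-05 by edgeR. Without the minimum count, 8 members differed between Halichoeres and Thalassoma and 10, in place of 19, between Hemigymnus and Thalassoma. The shares called among the 16145 genes then tested were not counted, so these falls cannot be read as particular to the members.

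The median log2 fold change of the members, beside that of the tested genes, was -0.15 and -0.04 for Coris minus Labrichthys, 0.08 and 0.02 for Halichoeres minus Hemigymnus, 0.22 and 0.02 for Halichoeres minus Thalassoma, and 0.06 and 0.01 for Hemigymnus minus Thalassoma. The median absolute difference was smaller in the members in all 4 comparisons (0.42, 0.58, 0.42 and 0.63, beside 0.63, 0.65, 0.59 and 0.73 over the tested genes), which the gap favours. Of the 66 calls within a status, 45 held in every refit with 1 fish left out in which the gene could be tested, and no fold change turned its sign. The number of members called then stayed between 12 and 17 for the non-cleaners, and between 13 and 17, 11 and 15, and 15 and 19 for the 3 cleaner pairs in the order above. All 40 members were tested in only 6 of the 43 refits, so these counts are out of differing numbers of members. The shares of the tested genes called in the refits were not counted.

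By these calls each cleaner species was below both others in some members, in no case a larger share than among the tested genes. Hemigymnus was below both other cleaners in 6 members, or 15% (Ldim_g10411, Ldim_g13252, Ldim_g21368, Ldim_g13170, Ldim_g4998 and Ldim_g12506), beside 16.9% of the tested genes. Thalassoma was below both in 5 members, or 12.5% (Ldim_g16903, Ldim_g20248, Ldim_g6954, Ldim_g7147 and Ldim_g20830), beside 13.1% of the tested genes. Halichoeres was below both in 2, or 5% (Ldim_g14179 and Ldim_g12615), beside 10.9%. In 3 of them (Ldim_g16903, Ldim_g20830 and Ldim_g4998) a call was made only because the higher species brought the gene to 200 counts. Some of these calls did not hold when 1 fish was left out. Ldim_g14179 lost both calls without Halichoeres melanurus 4 (edgeR adjusted p = 0.0718 and 0.096), Ldim_g20248 lost its call between Hemigymnus and Thalassoma in 27 of 43 refits, and Ldim_g20830 lost it in 4 of the 6 refits that kept its total at 200 counts. In 4 members, or 10% (Ldim_g15701, Ldim_g13940, Ldim_g18734 and Ldim_g24350), no pair within a status differed at this depth, beside 8.78% of the tested genes. Ldim_g15701 averaged 121 ± 80.7 CPM in Halichoeres, 209.5 ± 118 CPM in Hemigymnus and 193 ± 57.1 CPM in Thalassoma, against 346 ± 134 CPM in Coris and 354 ± 89.4 CPM in Labrichthys.

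The 3 libraries that took no part in the choice gave values of the same measure in other fish, all of them labelled as cleaners. In each, members below the level of both non-cleaner species were counted. Those levels did enter the choice, which took genes in which both were above the cleaners. The tested genes as a whole were not chosen in this way. Part of the difference between the members and the tested genes is therefore set by the choice. There were 36 of 40 in the library labelled Thalassoma lunare 4, where 37.0% of the tested genes were below both levels, and the exceptions were Ldim_g13693, Ldim_g27254, Ldim_g13681 and Ldim_g12506. All 40 were below in the library labelled Halichoeres melanurus 2, where 36.6% of the tested genes were, with 4 members at 0 counts. All 40 were also below in Hemigymnus melapterus 4, but so were 80.8% of the tested genes, and 16 members were at 0, so its count says little about the members. At or below the highest cleaner species level were 23, 31 and 39 of the 40 members in these libraries, in the same order. Neither the tested genes nor the fish in the choice were counted in this way. The mean level of the members was 7.95 in the left-out Thalassoma library and 7.14 in the left-out Halichoeres library, against 8.36 and 8.37 over the tested genes in the same libraries, and 5.51 against 6.00 in the Hemigymnus library. The 7.95 lies above the highest cleaner fish in the choice, at 7.84. With 1 library of each label there is no test.

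**Figure D5:**
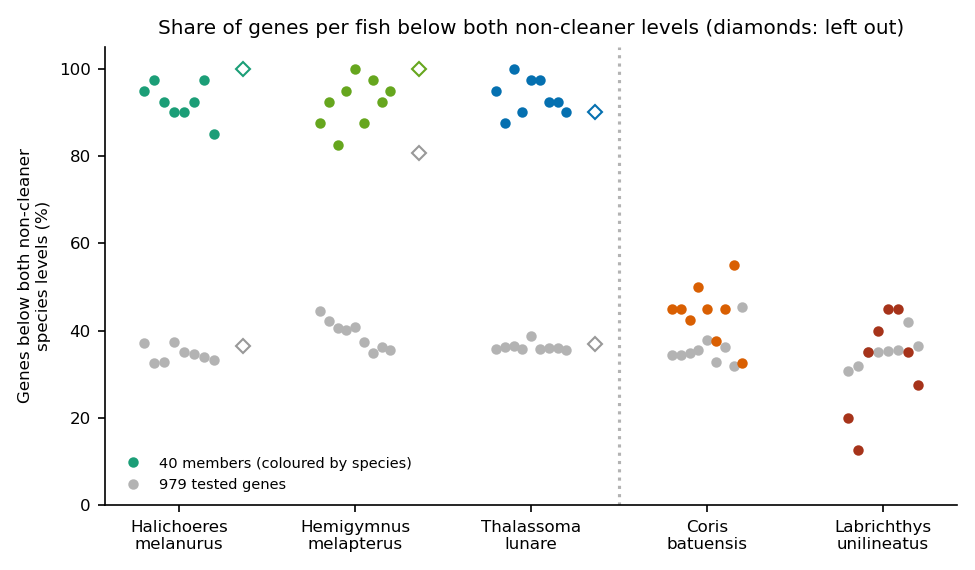
Share of the 40 members (coloured) and of the 979 tested genes (grey) in each fish (% on the y axis) that lay below both non-cleaner species levels, by species (x axis), with left-out libraries as open diamonds. By this share the left-out Thalassoma and Halichoeres libraries, at 36 and 40 of 40 members, lie among the cleaner fish that chose the set. The tested genes lie mostly near 30 to 45%. The left-out Hemigymnus library is high in both.

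For scale, the fish that entered the choice had 34 to 39 members below both non-cleaner levels in Halichoeres, 33 to 40 in Hemigymnus and 35 to 40 in Thalassoma, against 13 to 22 in Coris and 5 to 18 in Labrichthys.

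Pairs of members varied together within species about as weakly as other pairs of genes did. Over the 780 pairs of members, the median Pearson r of the deviations from the species mean across 43 fish was 0.03, against 0.0024 over pairs of tested genes, and single values ran from -0.55 to 0.56. An r above 0.5 was found in 5 pairs (0.641% of member pairs and 0.451% of pairs of tested genes), with the highest value, 0.558, between Ldim_g6660 and Ldim_g24350. Genes with the profile most like Ldim_g10411 across the 43 fish were Ldim_g19681 (r = 0.747), which is not a member (gap -0.49), and the members Ldim_g13252 (r = 0.736) and Ldim_g14266 (r = 0.724). All these points share libraries and depth, and the species levels that the gap selected for enter the r values over 43 fish.

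The same libraries were also counted on 26788 ENSONIT transcripts, and the files give no link between the 2 sets of identifiers. A transcript was called the profile partner of a gene when each was the other's nearest and r was at least 0.7, among 1936 ENSONIT transcripts with 100 counts or more. Here r was the Pearson correlation, over 43 fish, of deviations of log2(CPM + 10) from the species mean. Differences between species means therefore did not enter it. Such a partner was found for 0 of 40 members and for 52 of the 979 tested genes (5.31%). The number depends on the threshold and the libraries: 8 members had a partner at an r of at least 0.6 and 6 with all 46 libraries, and 3 of the partners had a gap above 0 in either case. The shares of the tested genes with a partner, and of their partners with a gap above 0, were not counted at these settings. These counts can therefore not be read as particular to the members. The median of the best r was 0.575 for members and for tested genes alike. The closest mutual pair was Ldim_g24705 with ENSONIT00000011007.1, at r = 0.698. That transcript averaged 1307 ± 341 CPM in Halichoeres, 1660.2 ± 437 CPM in Hemigymnus and 970.3 ± 200.4 CPM in Thalassoma, against 2003 ± 635 CPM in Coris and 2850.3 ± 714 CPM in Labrichthys, a gap of 0.27. In the ENSONIT counts as a whole, 181 of the 1936 transcripts (9.35%) had a gap above 0, with the largest at 1.94.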

How the data were processed

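Per the labels' protocols, RNA from the forebrain slice was made into 3′ tag libraries with poly-dT priming and PCR and read on a HiSeq instrument. Tools named in the submitters' processing notes are cutadapt 2.8, SAMtools and BWA. Their roles, the reference and the counter: not given in the sources used here. The authors deposited raw read counts per fish, on 28134 Ldim_g genes and on 26788 ENSONIT transcripts. Lines that name no gene held 95.2% of the reads listed with the Ldim_g genes and were left out of library sizes and tests. No molecular identifiers are named, so a molecule copied by PCR may count repeatedly.

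The members, lists and tests were chosen with earlier results of these data known. Named are the 6 members of largest gap, those at the border, those with extreme totals or differences within a status, exceptions in small counts, and the 3 genes most like the first member; the members with 1000 counts or more, and the lists of genes called in all 6 pairs or within a status, were named after their values were seen. Ldim_g genes with 200 counts or more in 43 libraries (979) were fitted in R 4.3.3 with edgeR 4.0.16: library sizes over these genes, TMM, 1 coefficient per species, quasi-likelihood tests, Benjamini-Hochberg adjustment within each comparison over the 979 genes, threshold 0.05. The biological coefficient of variation was 0.191. The random block used limma 3.58.1 (voom; consensus correlation 0.540), and DESeq2 1.42.0 was an alternative. The processing was tried on simulated data. For edgeR these held shifts in Labrichthys alone, compared with Coris, so they do not check the contrast of cleaners with non-cleaners.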

Additional observations from a re-analysis of the deposited data

Results flagged for a closer look

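In 35 groups of fish (the 6 members of largest gap and the mean level of all members, in each of 5 species), 1 fish stood far from its group by Dixon's criterion at the 95% level. Ldim_g13693 was at 164.8 CPM in Halichoeres melanurus 5, on 3 counts, where the next fish of that species had 40.2 CPM. Chance alone gives about 1 such group in 20.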

How the results depend on the processing

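Over 100 combinations of a result and an alternative setting, 86 stayed within 1.5 times the value reported and 14 did not. In each case where no reason is given the cause was not tested. Some of the 86 could not have come out otherwise, so this tally is no measure of stability. Another constant in place of the 10 in log2(CPM + 10) cannot change the sign of a gap. Nor can it change whether a left-out library lies below a species level. A threshold of r above 0.7 cannot raise a partner count of 0. Without a filter on low counts (16145 genes tested), 6 members in place of 14 were called lower in all 6 pairs, 8 in place of 15 differed between Halichoeres and Thalassoma, and 10 in place of 19 between Hemigymnus and Thalassoma. With all 46 libraries, 7 members differed between Halichoeres and Thalassoma, 6 members had an ENSONIT profile partner, and 3 of these partners had a gap above 0; with a likeness of 0.6 these counts were 8 and 3. Without the species Labrichthys, 23 of the 24 members that still had 200 counts were called lower in cleaners, and with the species as a random block 3 of 40 were. With a minimum total of 100 counts 134 genes had a gap above 0 and 22 members were among the 40 largest; with 500 counts 29 genes had one, so 13 members were chosen again. Other settings of the choice gave 29 to 40 of the members again, the fewest after thinning all libraries to 14927 counts. The fish numbers recur across species but did not pair the fish (median r of deviations 0.0007 over 73 same-numbered pairs and 0.0014 over 666 others); with a replicate block on them, 40 members were called lower in cleaners, 15 in all 6 pairs, and 14, 15, 14 and 19 in the 4 comparisons within a status. Leaving out Labrichthys unilineatus 8 or Coris batuensis 10, and refits leaving out each fish, were chosen after seeing the data. The share of all tested genes called was counted for the main fit and the random block only. Member calls under the other settings, the replicate block and the fit without Labrichthys included, have no such share beside them. Partner counts under other settings have no share of the tested genes beside them either. None of these counts shows whether a change is particular to the members. At a median of 30.4 CPM per count, members under 100 CPM in a species rest on a few counts per fish.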

Other observations

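A gene outside the set, Ldim_g27249, was concentrated in the same 2 fish as the member Ldim_g27254, and it was picked after its values were seen. Ldim_g27254 had 559 counts (11429 CPM) in Labrichthys unilineatus 8, 84 counts (1861 CPM) in the library labelled Thalassoma lunare 4, and 16 counts in 5 of the other 44 fish. Ldim_g27249 had 146 counts (2985 CPM) in the first of these libraries, 61 counts (1351 CPM) in the second, and 7 counts in 6 of the other 44 fish, at most 2 in any.

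Identifier numbers from 13000 to 14999 were held by 10 of the 40 members (25%), by 66 of the 979 tested genes (6.74%) and by 7.11% of all listed Ldim_g genes. This range was noticed after the members were known, and the files do not say whether the numbers follow positions in a genome.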
